A study of Mus musculus with 6 samples.

Results

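Interleukins are secreted proteins through which immune and tissue cells signal to one another, and the genes described here are the interleukins, their receptors and their binding proteins in gastrocnemius muscle of young and aged mice. A gene was taken as a member when its symbol begins with Il followed by a digit, a rule that uses names and no measured value. It found 82 of the 36717 genes on the array, represented by 99 of 55681 probes. Of the 82 genes, 39 encode ligands or the natural IL-1 antagonist, 41 encode receptor chains or soluble binding proteins, and 2 are neither. These are Il4i1, an enzyme that oxidises amino acids, and Il1bos, an RNA transcribed opposite to Il1b. The young group was 3 male mice aged 13 weeks and the aged group 3 male mice aged 26 months, all C57BL/6J with no treatment or engineered allele named, and total RNA of each gastrocnemius was labelled with Cy3 and hybridised to 1 single-colour Agilent array.

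Interleukins act through paired receptor chains, some of which are shared by several ligands. The IL-1 family signals through a receptor and an accessory chain to MyD88 and NF-kB, and it is held back by decoy receptors, a receptor antagonist and a binding protein for IL-18. The IL-2, IL-4, IL-7, IL-9, IL-15 and IL-21 receptors share the common gamma chain, the IL-6 and IL-11 receptors share gp130, and both classes signal through JAK kinases and STAT transcription factors. In skeletal muscle, IL-6 and IL-15 are known as factors that the muscle itself can release, whereas IL-1 beta is known as a product of myeloid cells.

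Signals are given on a log2 scale relative to the 75th percentile of each array, which thus lies at 0. That percentile was 209 to 310 intensity units over the 6 arrays, and 48.7% to 53.8% of all probes exceeded background. The 7 skeletal muscle markers (Ckm, Acta1, Mb, Ttn, Myh4, Tnnt3 and Des) were all well above background on every array. The young mice and aged mouse 1 shared row 1 of the slide, whereas aged mice 2 and 3 were in row 2, so that only aged mouse 1 could be set against young mice within a row. With 3 mice in each group, the smallest p of an exact two-sided permutation is 0.1, so p-values come from limma, fitted across all 20900 genes tested and adjusted over them by the Benjamini-Hochberg method. Each p-value sets the difference between the groups against the spread of these 6 samples within their groups, which limma moderates across genes. As the tissue was measured in bulk, fewer cells of a type and less RNA per cell cannot be told apart in any value below.

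Most interleukin genes were not well above background on any array. Testing a gene required 1 probe that was well above background on 3 or more arrays of the 6. This was met by 32 of the 82 genes, and by 20900 of the 36717 genes on the array. Of the other 50, 43 were well above background on no array and 7 on 1 or 2 arrays. Ligands were seldom detected, with 11 of 39 tested, whereas 20 of 41 receptor or binding protein genes were. The undetected ligands were Il1a, Il1rn, Il1f5, Il1f6, Il1f8, Il1f9 and Il1f10 of the IL-1 family, Il2, Il4, Il7, Il9, Il13 and Il21 of the common gamma chain and IL-13 group, Il3 and Il5, Il31 of the gp130 group, Il12b and Il23a, Il10, Il19, Il20 and Il22 of the IL-10 family, and Il17a, Il17b, Il17c, Il17f and Il25 of the IL-17 family. Il10, the main anti-inflammatory interleukin, was -5.37, -4.94 and -4.93 in young mice and -5.80, -5.35 and -5.43 in aged mice, not well above background in any mouse. The receptor chains not well above background on any array were Il18r1, Il18rap, Il1rapl1, Il1rapl2 and Il1rl2 of the IL-1 family, Il2rb, Il7r, Il9r, Il13ra1 and Il13ra2, Il27ra, Il23r, Il20ra and Il22ra1, and Il17rb. Il17ra, Il1rap and Il21r passed on the array of aged mouse 3 alone, Il12a on that of young mouse 1, Il31ra on that of young mouse 3, and Il5ra and Il22ra2 on those of young mouse 1 and aged mouse 1. A probe below background sets only an upper limit on the transcript it was designed for.

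**Figure D1:**
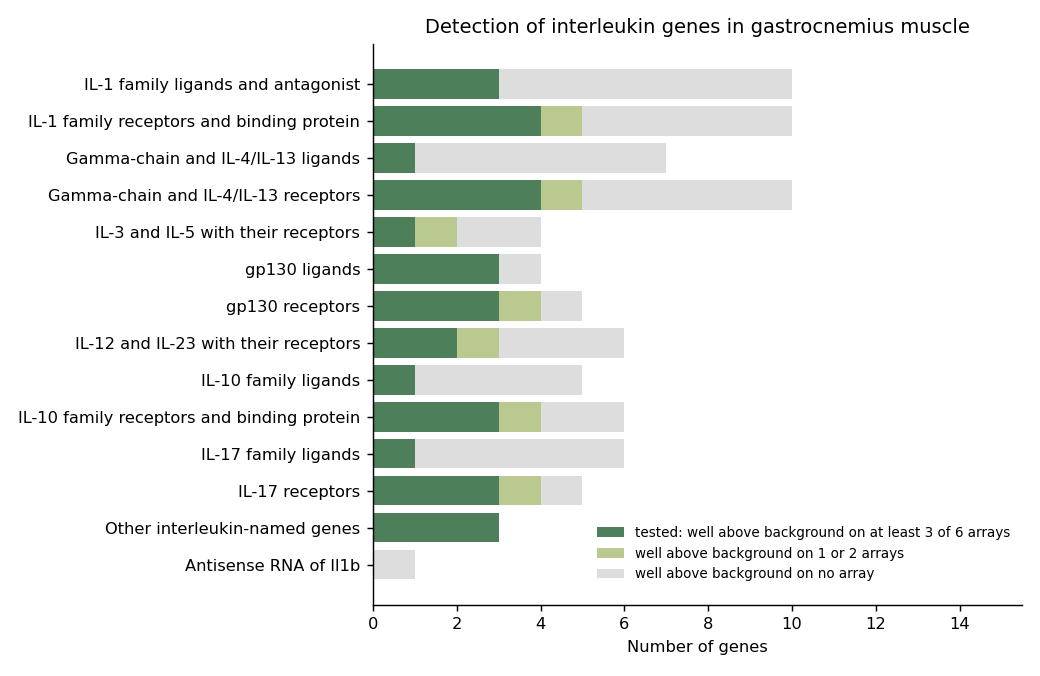
Number of interleukin genes in each family (horizontal axis) that were tested, were well above background on 1 or 2 of 6 arrays, or on no array. IL-17 family ligands had 1 gene tested of 6, and the IL-10 family ligands 1 of 5, whereas 4 of the 10 IL-1 family receptor and binding protein genes were tested.

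At an adjusted p under 0.05, 1 of the 32 tested genes differed between aged and young mice, Il1b, which was higher. In the same fit 0.254% of all genes tested differed and 0.196% were higher in aged mice. At an unadjusted p under 0.05, 8 of the 32 genes differed (25.0%), against 14.4% of all genes. Of these, 4 were higher (Il1b, Il1r2, Il2rg and Il18bp), against 6.07% of all genes, and 4 were lower (Il2ra, Il17rd, Il20rb and Il16), against 8.36%. The same 8 genes were those whose 3 young and 3 aged values did not overlap, a share of 25.0% beside 21.8% of all genes. The median log2 difference was -0.06 for the interleukin genes and -0.06 for all genes tested, and 15 of the 32 were above 0. Of the 8 genes, Il1b passed the filter wholly through the aged mice, in which it was higher, and Il1r2, Il2rg and Il2ra were each dim on 1 array of the group in which they were lower. The count is therefore a description only.

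**Figure D2:**
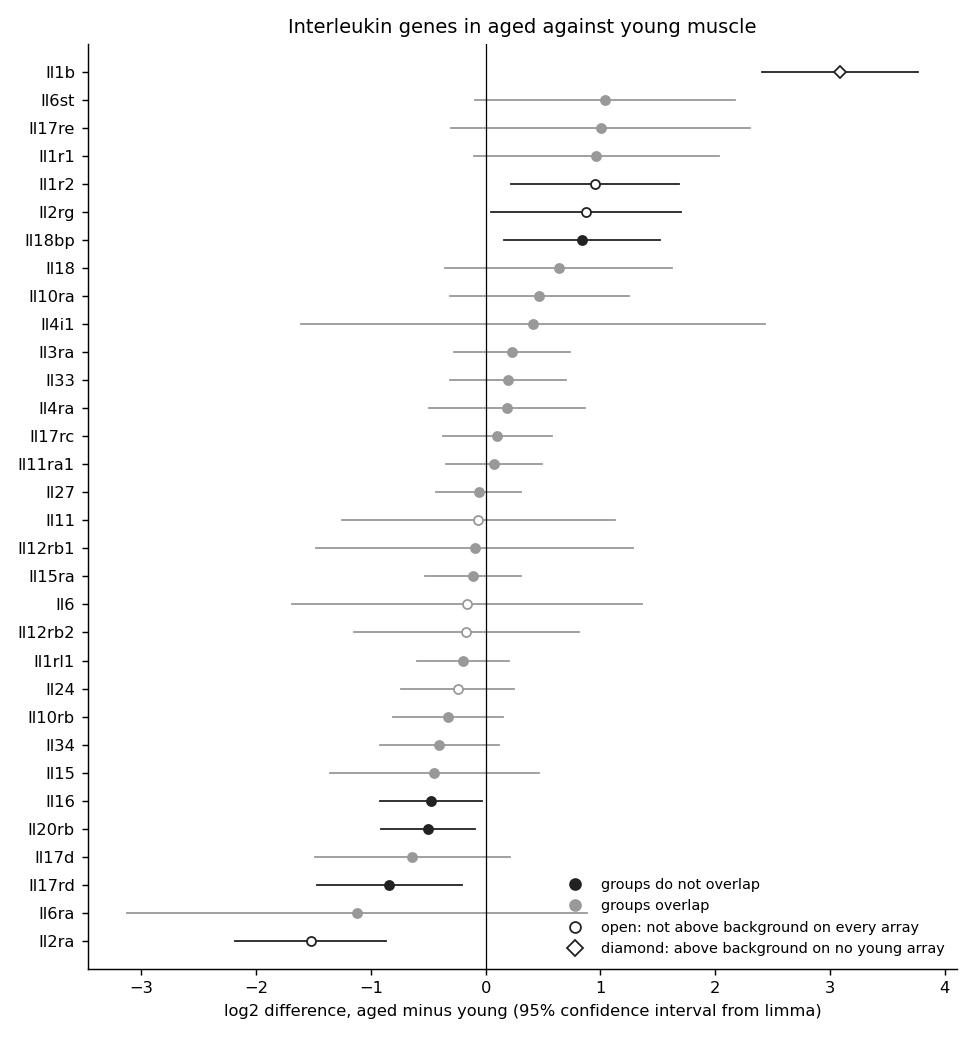
Log2 difference between aged and young mice (horizontal axis, aged minus young) of the 32 interleukin genes tested, with the 95% confidence interval from limma. Il1b stands at 3.09 and Il2ra at -1.53, and of the 32 intervals those of the 8 genes whose groups do not overlap leave out 0.

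Il1b encodes IL-1 beta, a pro-inflammatory cytokine released after cleavage by caspase-1. On the log2 scale its signal (NM_008361) was -6.20, -5.67 and -5.08 in young mice and -2.56, -2.63 and -2.49 in aged mice, which as intensities is 4.08, 5.06 and 6.20 against 52.6, 46.2 and 48.0. The 3 aged mice lay within a narrow band, and every one was above every young mouse. The probe was well above background on all 3 arrays of aged mice and on no array of young mice. The young values are therefore only a limit, and on the scale used here Il1b was 2.70-fold higher in aged mice when each young array was set to its lowest signal well above background. This bound is approximate, since a probe can lie above that lowest signal and still not be well above background. An example is Il17ra in young mouse 1, at -3.86 where the lowest signal was -4.20. The log2 difference in the fit was 3.09 (standard error 0.29, adjusted p = 0.0214 from limma). Both its size, which rests on values below background, and its call are conditional, since the gene was tested only because it was bright in aged mice, and with no filter on dim probes the adjusted p was 0.0795. Normexp background correction adds an offset of 50 to every signal, about the aged intensity of Il1b itself, and there the difference was 0.60 (adjusted p = 0.168 from limma), below the bound given above. Between aged mouse 1 and the young mice, which shared a row of the slide, the difference was also 3.09, and with the row as a block the adjusted p was 0.0861. Without young mouse 1, young mouse 2, aged mouse 2 or aged mouse 3 the differences were 2.81, 3.07, 3.12 and 3.05, close to that in all mice, but the adjusted p from limma was 0.0539, 0.103, 0.0863 and 0.111. Without young mouse 3 or aged mouse 1 the differences were 3.37 and 3.09, and the adjusted p from limma stayed under 0.05, at 0.0344 and 0.0286. The antisense transcript Il1bos was well above background on no array.

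The number of probes that were well above background on every array of aged mice and on none of young mice was 2 among the 99 interleukin probes, against 0.257% of all probes, and the reverse was found for 0 interleukin probes and 0.228% of all probes. The other such probe belongs to Il12rb1, the receptor chain shared by IL-12 and IL-23. It gave -4.41, -3.97 and -5.73 in young mice and -2.25, -2.21 and -3.40 in aged mice. With the young arrays set to the same approximate bound, it was 2.59-fold higher in aged mice. The brighter Il12rb1 probe, which represents the gene in the fit, gave -2.68, -3.58 and -1.57 in young mice and -2.10, -2.43 and -3.59 in aged mice, with groups that overlapped and a log2 difference of -0.09 (95% confidence interval -1.47 to 1.29). The probes of Il12rb1 thus disagree although both name the accession NM_008353, and no direction is given for this gene.

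None of the 4 tested genes for IL-1 family receptors and binding proteins passed the adjusted threshold. In 2 of the 4, Il1r2 and Il18bp, the groups did not overlap, which was also so for 21.8% of all genes tested. Il1r2, a decoy receptor that binds IL-1 without signalling, was -3.40, -3.89 and -3.24 in young mice and -2.11, -3.13 and -2.42 in aged mice. The aged values did not overlap with the young ones, although aged mouse 2 was close to them, and young mouse 2 was not well above background. Il1r2 differed by 0.95 on the log2 scale (standard error 0.31, adjusted p = 0.257 from limma), and by 0.31 after normexp correction. Il18bp, the soluble protein that neutralises IL-18, was -1.42, -1.35 and -1.15 in young mice and -0.68, -0.88 and 0.15 in aged mice. The groups did not overlap, with aged mouse 3 the highest. Il18bp differed by 0.84 on the log2 scale (standard error 0.29, adjusted p = 0.277 from limma), and by 0.53 without aged mouse 3.

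Il1r1, the signalling receptor for IL-1 alpha and IL-1 beta, separated the aged mice from one another. It was 0.74, 0.96 and 0.75 in young mice and 0.70, 2.11 and 2.54 in aged mice. Aged mice 2 and 3 were higher than all young mice and aged mouse 1 was below them. The log2 difference was 0.97 (standard error 0.45, adjusted p = 0.385 from limma). Without aged mouse 1 it was 1.51 (adjusted p = 0.0436 from limma), without aged mouse 3 it was 0.59, and with the row of the slide as a block, which sets aged mouse 1 against the young mice, it was -0.11. Since aged mice 2 and 3 alone were in row 2, row and mouse cannot be told apart for Il1r1.

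Among the other tested genes of the family, Il18, a ligand activated by caspase-1, was -2.38, -2.43 and -0.98 in young mice and -1.63, -1.30 and -0.96 in aged mice. Young mouse 3 lay among the aged mice, and the log2 difference was 0.64 (95% confidence interval -0.35 to 1.63). Il33, an alarmin of stromal cells, differed by 0.19 (-0.31 to 0.70), with aged mouse 3 highest at 0.66 and all other mice between -0.01 and 0.10. Il1rl1, the receptor for IL-33, differed by -0.20 (-0.60 to 0.20) in the probe that was detected, and 2 further Il1rl1 probes were well above background on no array. The antagonist Il1rn, Il1a and 5 IL-36 and IL-38 related genes were not detected on any array.

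**Figure D3:**
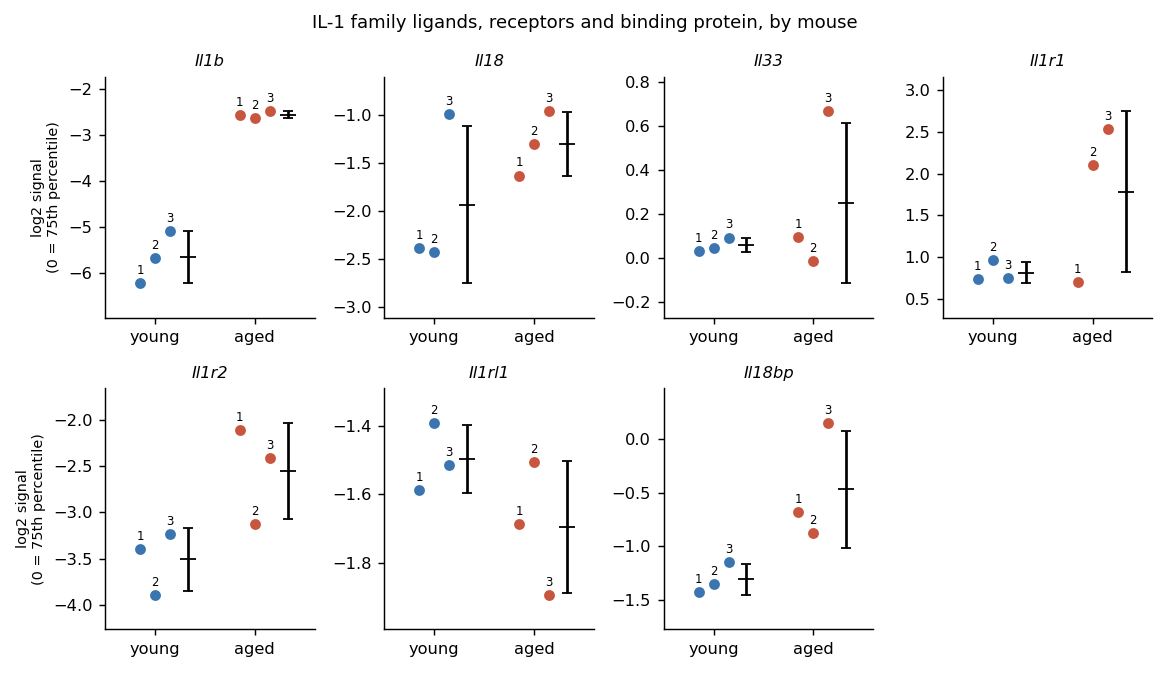
Log2 signal relative to the 75th percentile of the array (vertical axes, each gene on its own scale) of the 7 tested IL-1 family genes in young and aged mice, with mouse numbers, and the mean and SD (n = 3) beside them. Il1b, Il1r2 and Il18bp do not overlap between the groups, and Il1r1 is high in aged mice 2 and 3 alone.

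The promoters of Il1b, Il1r2 and Il18bp, the 3 IL-1 family genes whose groups did not overlap, are shown in windows of 300 bases around the start of the gene, as given by RefSeq for GRCm38.p6. They lie at chr2:129371090-129371389 on the minus strand, chr1:40085843-40086142 on the plus strand and chr7:102018183-102018482 on the minus strand. Capitals mark matches on either strand to 6 short motifs, TATA box (TATAAA), NF-kB (GGANTTTCC), AP-1 (TGANTCA), C/EBP (TTGCNNAA), PU.1 (GAGGAA) and STAT (TTCNNNGAA), in which N is any base.
Il1b: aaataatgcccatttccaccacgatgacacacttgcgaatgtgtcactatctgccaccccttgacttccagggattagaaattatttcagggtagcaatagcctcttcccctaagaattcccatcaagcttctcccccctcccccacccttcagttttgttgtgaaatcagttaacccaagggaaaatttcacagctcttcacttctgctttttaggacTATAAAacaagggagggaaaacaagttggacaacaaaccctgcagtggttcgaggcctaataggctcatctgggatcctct
Il1r2: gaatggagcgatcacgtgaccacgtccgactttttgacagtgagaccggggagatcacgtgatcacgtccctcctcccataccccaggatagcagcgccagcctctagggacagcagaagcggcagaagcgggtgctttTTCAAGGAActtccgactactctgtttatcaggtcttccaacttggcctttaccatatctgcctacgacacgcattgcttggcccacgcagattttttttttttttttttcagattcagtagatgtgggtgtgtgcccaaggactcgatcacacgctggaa
Il18bp: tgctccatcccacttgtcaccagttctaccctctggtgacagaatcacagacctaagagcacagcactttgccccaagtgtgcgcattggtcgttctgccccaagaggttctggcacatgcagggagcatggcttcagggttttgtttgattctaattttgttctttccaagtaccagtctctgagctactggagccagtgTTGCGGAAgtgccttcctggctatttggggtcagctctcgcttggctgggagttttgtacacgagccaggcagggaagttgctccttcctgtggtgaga

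The Il1b promoter held 1 match, a TATA box at -31 from the start, where 13.6% of the 32851 promoters of this length hold one. Il1r2 held a STAT match at -111 (8.30% of all promoters) and Il18bp a C/EBP match at -49 (10.8%). No match to the NF-kB (1.25% of all promoters), AP-1 (7.81%) or PU.1 (28.3%) letters was in these 3 windows, which says nothing of sites farther away.

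In the common gamma chain family, the groups did not overlap for 2 of the 4 receptor chains tested. These were Il2ra with lower and Il2rg with higher values in aged mice, and neither passed the adjusted threshold. The groups did not overlap for 21.8% of all genes tested. Il2ra, the high-affinity chain of the IL-2 receptor, was -1.997, -2.10 and -1.94 in young mice and -4.06, -2.98 and -3.57 in aged mice. The young mice agreed closely, every aged mouse was lower, and the probe was not well above background in aged mouse 1. The log2 difference was -1.53 (standard error 0.28, adjusted p = 0.109 from limma), the largest decrease among the 32 genes tested, and under the alternatives it ran from -2.05 to -0.58, the latter after normexp background correction. Il2rg, the common gamma chain itself, was -2.93, -2.43 and -3.80 in young mice and -2.20, -2.35 and -1.99 in aged mice. The groups did not overlap, but young mouse 2 was close to aged mouse 2 and young mouse 3 was not well above background. Il2rg differed by 0.87 on the log2 scale (standard error 0.35, adjusted p = 0.327 from limma), by 0.50 without young mouse 3 and by 0.23 after normexp correction. Il2rb, the chain that IL-2 and IL-15 share, was well above background on no array.

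Il15, known as a muscle-derived cytokine, was -1.50, -0.66 and -1.58 in young mice and -0.98, -2.12 and -1.97 in aged mice. The groups overlapped through aged mouse 1 alone, and young mouse 2 was the highest of all mice. The log2 difference of Il15 was -0.45 (95% confidence interval -1.35 to 0.46). It was between -0.80 without aged mouse 1 and -0.15 without young mouse 2, and 0.27 with the row of the slide as a block. Il15ra, which presents IL-15 to neighbouring cells, was 4.20, 3.81 and 3.86 in young mice and 3.71, 3.89 and 3.95 in aged mice. The groups overlapped, and the difference was -0.11 (-0.52 to 0.31). A dimmer Il15ra probe ran from -2.46 to -0.38 in young mice and from -1.25 to -0.44 in aged mice, a difference in means of 0.45 in the other direction. Il4ra, the chain that IL-4 and IL-13 receptors share, differed by 0.19 (-0.49 to 0.86). Its dimmer probe was -2.89, -3.84 and -3.50 in young mice and -2.91, -2.44 and -2.34 in aged mice, also higher on average. Il3ra, the alpha chain for IL-3, differed by 0.23 (-0.27 to 0.74).

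Among the gp130 cytokines, Il6 was near background and varied more among aged than among young mice (SD 1.37 and 0.34, n = 3 each). It was -3.45, -3.17 and -3.84 in young mice and -4.74, -4.10 and -2.11 in aged mice, and it was well above background in young mice 1 and 2 and aged mouse 3. Aged mouse 3 was the highest of the 6 and aged mice 1 and 2 were the lowest, and the log2 difference was -0.16 (95% confidence interval -1.68 to 1.36). This was 0.38 without aged mouse 1 and -0.93 without aged mouse 3. Il11 differed by -0.06 (-1.25 to 1.12), and Il27 by -0.06 (-0.43 to 0.31).

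Il6st, which encodes the signalling chain gp130, was 4.58, 4.25 and 2.77 in young mice and 4.97, 4.51 and 5.24 in aged mice. The groups overlapped by young mouse 1, and young mouse 3 was far below the others. Il6st differed by 1.04 on the log2 scale (standard error 0.48, adjusted p = 0.382 from limma), and without young mouse 3 by 0.49. Il6ra, the IL-6 binding chain, was 3.70, 4.34 and 2.27 in young mice and 4.10, 1.57 and 1.27 in aged mice. Aged mouse 1 lay with young mice 1 and 2, and aged mice 2 and 3 were the lowest. Il6ra differed by -1.12 on the log2 scale (standard error 0.84, adjusted p = 0.567 from limma), by between -2.01 (without aged mouse 1) and -0.60 (without aged mouse 3) when a mouse was left out, and by 0.66 with the row of the slide as a block. Il11ra1 was between 5.56 and 5.96 in all mice, a difference of 0.07 (-0.35 to 0.49). As Il11ra2 is a near-identical gene, what this probe measured is uncertain.

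Of the 3 IL-17 receptor genes tested, 1 had groups that did not overlap, beside 21.8% of all genes tested. Il17rd, a receptor-like protein that also restrains fibroblast growth factor signalling, was 0.78, 0.77 and 0.55 in young mice and 0.30, -0.05 and -0.67 in aged mice. No aged mouse reached the lowest young mouse, and aged mouse 3 was the lowest. Il17rd differed by -0.84 on the log2 scale (standard error 0.27, adjusted p = 0.250 from limma), and by -0.40 with the row of the slide as a block. Il17re, the receptor for IL-17C, differed by 1.004 (95% confidence interval -0.30 to 2.31), with young mice between -1.9996 and 0.14 and aged mice between -0.34 and 0.60. Il17rc, a chain of the IL-17A receptor, differed by 0.10 (-0.37 to 0.58), and its dimmer probe was also higher in aged mice on average. The only IL-17 ligand detected, Il17d, differed by -0.64 (-1.49 to 0.21), and both of its probes were lower in aged mice on average.

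In the IL-10 receptor family, Il20rb, the chain shared by the IL-19, IL-20 and IL-24 receptors, was -0.76, -0.90 and -1.08 in young mice and -1.42, -1.26 and -1.58 in aged mice. The groups were close but did not overlap, and the spread was equal in both (SD 0.16 in each, n = 3). The log2 difference of Il20rb was -0.50 (standard error 0.17, adjusted p = 0.278 from limma). Il10rb, a chain used by IL-10 and IL-22, differed by -0.33 (95% confidence interval -0.80 to 0.15), and Il10ra, the IL-10 binding chain of leukocytes, by 0.47 (-0.31 to 1.25). The ligand Il24 differed by -0.24 (-0.74 to 0.25), and its probe was not well above background in young mouse 2. In the IL-12 family, Il12rb2, the second chain of the IL-12 receptor, was -3.88, -3.15 and -2.53 in young mice and -3.25, -2.85 and -3.96 in aged mice, a difference of -0.17 (-1.15 to 0.81). A dimmer Il12rb2 probe was -3.81, -4.57 and -2.93 in young mice and -3.04, -3.69 and -4.06 in aged mice, a difference in means of 0.17, and it was well above background on 3 arrays. The probes of Il12rb2 differ in sign, and both groups overlap.

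Il16, a ligand of CD4 that attracts T cells, was -0.98, -0.79 and -0.82 in young mice and -1.16, -1.20 and -1.64 in aged mice. All aged mice were below all young mice, aged mouse 3 by the most. Il16 differed by -0.47 on the log2 scale (standard error 0.19, adjusted p = 0.324 from limma), by -0.30 with the row of the slide as a block and by -0.15 after normexp correction. Il34, a ligand of the macrophage growth factor receptor CSF1R, was 0.75, 0.83 and 0.64 in young mice and 0.32, 0.72 and -0.02 in aged mice, a difference of -0.40 (95% confidence interval -0.92 to 0.11) with an overlap through aged mouse 2. Il4i1 ranged widely in both groups, from -0.56 to 1.97 in young mice and from -0.53 to 2.21 in aged mice.

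**Figure D4:**
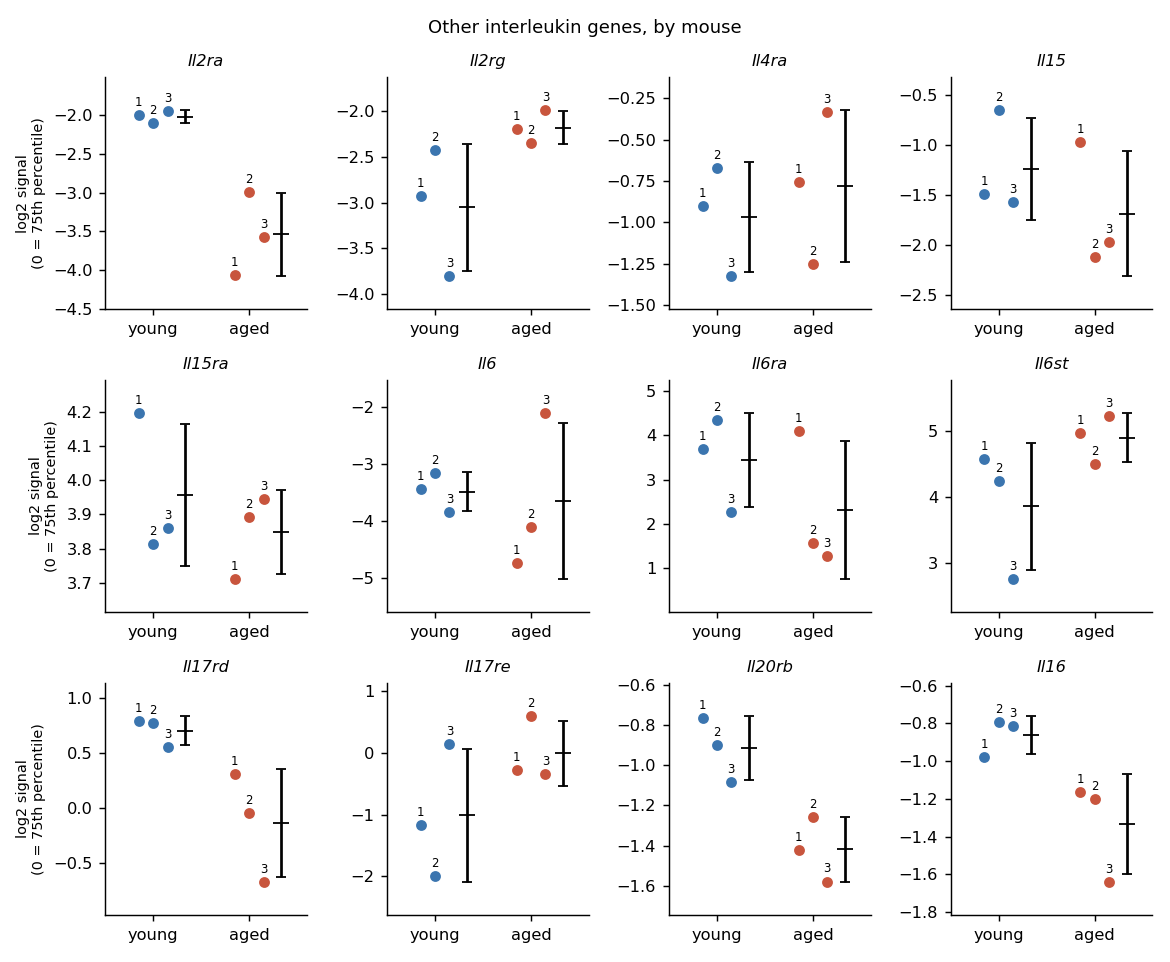
Log2 signal relative to the 75th percentile of the array (vertical axes, each gene on its own scale) of 12 other interleukin genes in young and aged mice, with mouse numbers, and the mean and SD (n = 3) beside them. Il2ra, Il17rd, Il20rb and Il16 are lower in every aged mouse than in every young mouse and Il2rg is higher, whereas of the 12 genes shown Il6 and Il6ra have the largest SD among the aged mice.

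Receptor chains and ligands of these families that do not carry an interleukin symbol were taken as a list of 18 genes, of which 14 were tested. None passed the adjusted threshold. At an unadjusted p under 0.05, 3 were higher (21.4%, against 6.07% of all genes) and 4 lower (28.6%, against 8.36%), and the median log2 difference was 0.05. This list and those below were chosen with earlier results of these data known, so their shares are descriptions only. The 3 that were higher belong to 1 receptor group. Csf2rb, the common beta chain of the IL-3, IL-5 and GM-CSF receptors, was -0.75, -0.75 and -0.80 in young mice and 0.70, 0.30 and 0.995 in aged mice. Every aged mouse lay above the narrow band of the young mice, and the log2 difference was 1.43 (standard error 0.21, adjusted p = 0.0659 from limma). A dimmer Csf2rb probe, well above background on all arrays, was -1.86, -1.74 and -2.32 in young mice and -2.09, -1.50 and -1.82 in aged mice, with groups that overlapped and a difference in means of 0.17, and with the mean of all probes Csf2rb differed by 0.80 (adjusted p = 0.144 from limma). Csf2rb2, its IL-3 specific relative in mice, was higher by 1.05 (standard error 0.18, adjusted p = 0.104 from limma) and with the mean of both its probes by 1.67, and Csf2ra, the GM-CSF binding chain, by 0.57 (adjusted p = 0.232 from limma). The dimmer Csf2rb2 probe was -3.44, -3.15 and -6.04 in young mice and -1.76, -2.32 and -1.67 in aged mice. It was not well above background in young mouse 3, whose low value enters the 1.67. Csf2rb and Csf2rb2 are close in sequence, so their probes may measure both. The 4 that were lower were Cntf, a neurotrophic gp130 cytokine of Schwann cells (-0.86), Tslp, an epithelial cytokine that was well above background in 1 of 3 aged mice (-0.85), Lifr, the receptor chain for LIF and CNTF (-0.58), and Sigirr, an inhibitory receptor of the IL-1 family (-0.47). The ligands Lif, Osm and Csf2 were well above background on no array.

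Of 19 listed JAK-STAT genes 17 were tested, and at an unadjusted p under 0.05, 4 were higher and 4 lower (23.5% each, against 6.07% and 8.36% of all genes), with none past the adjusted threshold. As the list was chosen with earlier results of these data known, these shares are a description only. Ptpn6, the phosphatase SHP-1 of blood cells, was higher by 1.06 (standard error 0.19, adjusted p = 0.108 from limma) and by 0.63 after normexp correction, and Stat5a, Stat6 and Tyk2 were higher by 0.63, 0.60 and 0.67. Stat5b, Jak2 and Ptpn11 differed by -0.49, -0.54 and -0.48, and Socs2, an inhibitor that cytokines induce, by -0.85. Socs3, an inhibitor that STAT3 induces, was 2.05, 0.83 and 1.65 in young mice and 1.93, 2.34 and 4.80 in aged mice, and Stat3 was 4.43, 4.69 and 4.42 against 4.77, 4.78 and 6.05. Both were highest in aged mouse 3. Of the interleukin genes tested, Il1b, Il1r1, Il2rg, Il3ra, Il4ra, Il6, Il6st, Il17rc, Il18, Il18bp and Il33 were also highest in that mouse. Il1rl1, Il6ra, Il10rb, Il12rb1, Il12rb2, Il16, Il17rd, Il20rb and Il34 were lowest in it. The share of all genes that were highest in that mouse was not counted. These ranks were seen after the values were known, in 1 mouse, and a relation among these genes was not tested.

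Of 23 listed genes that signal below the IL-1 and IL-17 receptors 21 were tested, and 1 was higher and 2 lower at an unadjusted p under 0.05, a share of 14.3% that lies at the 14.4% of all genes. These were Ikbkg (0.54), a regulatory subunit of the IkB kinase, and Map3k7 (-0.49) and Tab2 (-0.45), which form the kinase complex above it. Casp1, the protease that cleaves IL-1 beta and IL-18, was -0.94, -1.08 and -0.77 in young mice and -0.63, -0.62 and -0.68 in aged mice, without overlap between the groups (log2 difference 0.29, adjusted p = 0.447 from limma). Nlrp3, the sensor that activates the Casp1 protease, was well above background on no array.

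**Figure D5:**
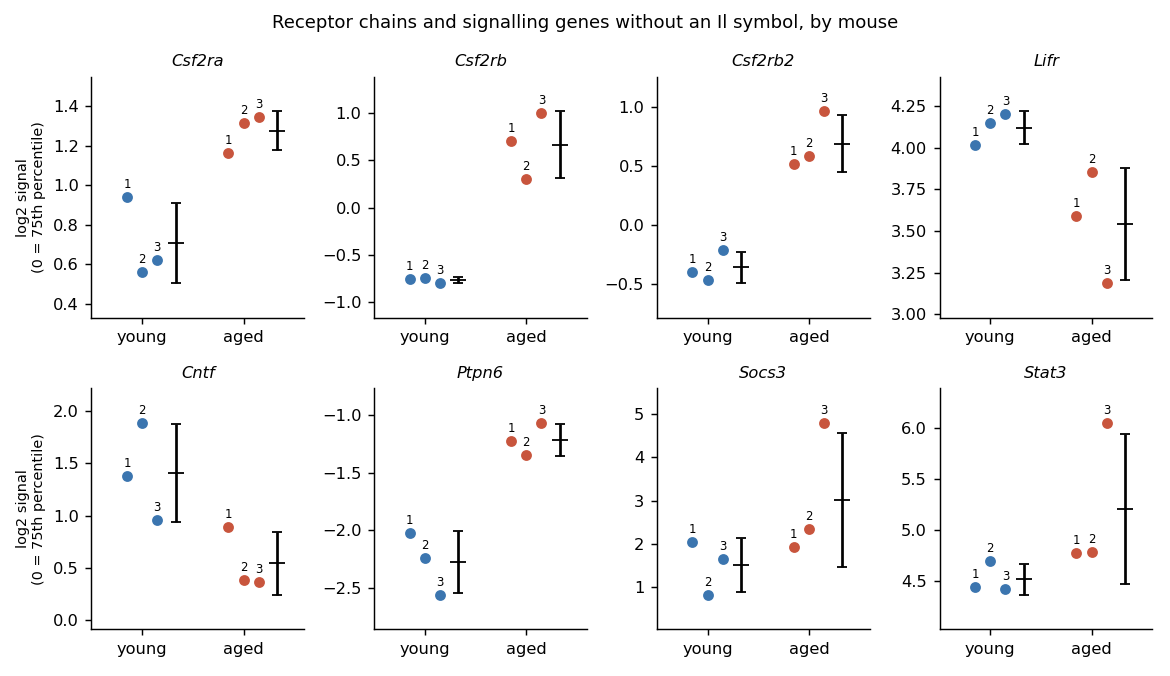
Log2 signal relative to the 75th percentile of the array (vertical axes, each gene on its own scale) of 8 receptor chain and signalling genes without an interleukin symbol in young and aged mice, with mouse numbers, and the mean and SD (n = 3) beside them. Csf2ra, Csf2rb, Csf2rb2, Ptpn6 and Stat3 are higher in every aged mouse than in every young mouse, and Lifr and Cntf are lower. Socs3 and Stat3 are highest in aged mouse 3.

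Markers of cells that can carry interleukin genes were measured on the same arrays. Of 10 macrophage markers 9 were tested, of which 6 were higher and 3 lower, with a median log2 difference of 0.46. Cd68 (log2 difference 1.08), Adgre1 (0.64) and Fcgr1, which was well above background in 3 aged and 0 young mice, were higher at an unadjusted p under 0.05. They were 33.3% of those tested, against 6.07% of all genes. Lyz2, Mrc1 and Cd14 differed by 1.36, 0.46 and 0.37, and Itgam, Mertk and Csf1r by -0.26, -0.39 and -0.05. Cd163 was not well above background on any array. Fcgr1 was tested only because it was bright in aged mice, so the share of 33.3% is a description only. The summed linear signal of the list was 38.6 to 45.8 in young mice and 41.6 to 43.6 in aged mice, and without its brightest gene, Itgam, 18.3 to 19.6 and 19.9 to 25.6. Of 10 neutrophil markers 7 were tested, and 2 of these, S100a8 and S100a9, passed the adjusted threshold (log2 differences 4.80 and 4.70), against 0.254% of all genes. At an unadjusted p under 0.05, Retnlg and Fpr1 were also higher and Camp was lower (-0.40). The shares were 57.1% higher and 14.3% lower, against 6.07% and 8.36% of all genes. Retnlg and Fpr1, detected in 3 aged and 0 young mice, were tested only because they were bright in aged mice, so the shares are a description only. Elane differed by -0.31, without overlap between the groups. The list had a summed signal of 157 to 162 in young and 169 to 199 in aged mice, most of it from Csf3r, which differed by 0.05. Without Csf3r the sum was 1.43 to 2.02 in young and 17.1 to 25.3 in aged mice, and Mpo was not well above background on any array. Of 8 mast cell markers 7 were tested, and Hdc and Cma1 were higher by 1.15 and 0.82 at an unadjusted p under 0.05 (28.6%, against 6.07% of all genes). Fcer1a, Mcpt4, Cpa3 and Tpsb2 differed by 0.85, 0.39, 0.32 and 0.15 and Kit by -0.35, all with groups that overlapped. Ms4a2 was not detected, and the summed signal of the list was 4.22 to 5.92 in young and 5.80 to 7.86 in aged mice. Of 10 lymphocyte markers 4 were tested and none differed at an unadjusted p under 0.05. The summed signal was 2.84 to 3.30 in young and 2.49 to 3.20 in aged mice, and Cd3g, Cd8a, Lck and Ms4a1 were detected on no array. The part of these cells in the differences of Il1b, Il1r2, Il2rg and Csf2rb was not tested.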

How the data were processed

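For each of 6 single-colour Agilent arrays, the authors deposited the output of Feature Extraction (version 9.5 per the processing notes, 11.0.1.1 per the file headers), in which the processed signal is a linear intensity, background-subtracted and detrended within the array. The deposited value table held the same intensities. The methods name no test for the arrays.

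Outlier spots (161 to 212 per array) were left out, log2 signals of a probe's spots were averaged, and the array's 75th percentile was subtracted. Accessions were matched without version to RefSeq transcripts of GRCm38.p6, naming 28331 probes; 27350 kept the identifier of the file. The array design was annotated on another build, so no coordinates of probes are given. A gene was its brightest probe among those well above background on at least 3 of 6 arrays. Groups came from the sample titles. The difference between aged and young mice was fitted in limma 3.58.1 (R 4.3.3), which on simulated arrays of 20900 genes recovered 84.8%, 68.7% and 19.4% of genes changed by 3, 2 and 1 on the log2 scale. In the simulation 200 genes were changed, and 4 unchanged genes were called. Its noise was normal and independent, with no background floor and no effect of slide row, so these rates need not hold for the real arrays. A probe below background on every array of a group was given an approximate bound from the lowest signal well above background. Every tested interleukin gene is named. Values per mouse are given where groups did not overlap or the unadjusted p was under 0.05, for Il6, Il15, Il1b, Il10 and Il6st, where the probes of a gene disagreed, and for some further genes chosen after their values were seen. Members and lists were chosen with earlier results of these data known. The number of arrays limits the precision. The 3 lists of fibroblast, endothelial and muscle markers gave medians of -0.47, -0.09 and -0.18. The planned block for slide or scan could not be fitted, as there was 1 of each.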

Additional observations from a re-analysis of the deposited data

How the results depend on the processing

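Of the 32 interleukin genes tested, 18 kept their direction in all of the up to 17 alternatives run for each, Il1b, Il2ra, Il1r2, Il2rg, Il18bp, Il17rd, Il20rb, Il16 and Il6st among them, and 14 did not, 4 of these only when a mouse was left out. The number of interleukin genes past the threshold was 1, and it was 0 with normexp background correction, no filter on dim probes, a filter that asked for all 6 arrays (which removed Il1b from the test and left 24 interleukin genes), the slide row as a block and the replicate block, and between 0 and 2 when a mouse was left out (2 without aged mouse 1, Il1b and Il1r1). The log2 difference of Il1b was between 0.60 and 3.37, with an adjusted p between 0.0130 and 0.168 in limma, under 0.05 in 8 of 16 alternatives. Over all genes, 53 were past the threshold, 8 with no filter, 35 with the filter on all 6 arrays, 5 with the replicate block, and between 1 (without aged mouse 3) and 199 (without aged mouse 1) when a mouse was left out. The titles number the mice of both groups alike, but same-numbered mice did not deviate together (correlations of -0.06, -0.27 and 0.03), and no mouse correlated best with its own number. The median of the interleukin genes was -0.06; it was -0.21 with median scaling, which shifted the median of all genes by -0.15, 0.10 with no filter, 0.12 with the mean of all probes, and between -0.13 and 0.13 when a mouse was left out. With Il1b at its bound, an alternative chosen after seeing the data, it was -0.06. The direction turned with median scaling for Il17rc (-0.044) and Il11ra1 (-0.077), with the mean of all probes for Il12rb1 (0.99), Il15ra (0.17) and Il12rb2 (0.0025), and with the slide row as a block for Il1r1 (-0.11), Il4i1 (-1.10), Il3ra (-0.085), Il17rc (-0.074), Il12rb1 (0.52), Il15 (0.27) and Il6ra (0.66). When a mouse was left out, the difference ran from -0.64 to 0.28 for Il11, -0.0033 to 0.20 for Il11ra1, -0.58 to 0.43 for Il12rb1, -0.51 to 0.16 for Il12rb2, -0.18 to 0.013 for Il15ra, -0.026 to 0.24 for Il17rc, -0.015 to 0.32 for Il33, -0.20 to 1.17 for Il4i1, -0.038 to 0.42 for Il4ra and -0.93 to 0.38 for Il6. The cause of these changes was not tested. Probes near background, such as those of Il1b in young mice and Il6, limit what can be said of their size.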
